A study of Mus musculus with 8 samples.

Results

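The regulators of G protein signalling (RGS) described here are 10 mouse genes, Rgs1, Rgs2, Rgs3, Rgs4, Rgs5, Rgs6, Rgs10, Rgs12, Rgs14 and Rgs16, chosen by gene name, and each was found as 1 row of a table of 55679 genes. The table holds 21 genes named Rgs and a number, so 11 further members of the family served for comparison. The data are RNA sequencing of the left ventricle in 8 wild-type C57BL/6J mice, all male; the study describes further samples, which were not analysed here. The 4 control mice received saline and the 4 ANG II mice received 1500 ng/kg/min of angiotensin II, a hormone that drives blood pressure up, for 7 days, each through an osmotic pump under the skin. All hearts were flushed with saline, and the labels name no other difference between the groups. The comparison asks which of these brakes on G protein signalling differ in level between the hypertensive hypertrophied ventricle and the control ventricle.

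When a hormone binds its receptor, the receptor loads the alpha subunit of a G protein with GTP, and the signal lasts until the GTP is split. RGS proteins bind the loaded alpha subunit and speed that step, so they shorten signals that pass through Gq or Gi. Angiotensin II acts mainly on the type 1 angiotensin receptor, which couples to Gq, the route that Rgs2 is known to restrain in heart and vessel. The family is divided by sequence into subfamilies, of which R4 holds mostly small proteins (Rgs1 to Rgs5 and Rgs16), R7 holds proteins that pair with the beta subunit Gnb5 (Rgs6), and R12 holds Rgs10 and the larger Rgs12 and Rgs14.

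The start regions of 4 of the genes are given first, because these 4 carry the contrasts below: Rgs10 was called higher in every alternative tried, Rgs2 was the single gene of the 10 whose ANG II libraries all lay below the controls, and Rgs5 and Rgs4 are chromosomal neighbours that differ greatly in level. The sequences are from RefSeq on GRCm38.p6, run from 250 bases before to 50 bases after the annotated start, and are written 5′ to 3′ on the strand of the gene. Capitals mark a TATAAA match. The windows lie at chr7:128418123-128418422 on the minus strand (Rgs10), chr1:144004100-144004399 on the minus strand (Rgs2), chr1:169655251-169655550 on the plus strand (Rgs5) and chr1:169747593-169747892 on the minus strand (Rgs4).
Rgs10: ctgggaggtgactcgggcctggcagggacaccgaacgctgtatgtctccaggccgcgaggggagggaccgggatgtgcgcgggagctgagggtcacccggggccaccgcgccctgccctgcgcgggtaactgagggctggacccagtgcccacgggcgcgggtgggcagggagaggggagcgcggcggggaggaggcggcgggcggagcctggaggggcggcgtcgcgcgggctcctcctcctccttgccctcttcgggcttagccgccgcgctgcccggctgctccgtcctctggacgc
Rgs2: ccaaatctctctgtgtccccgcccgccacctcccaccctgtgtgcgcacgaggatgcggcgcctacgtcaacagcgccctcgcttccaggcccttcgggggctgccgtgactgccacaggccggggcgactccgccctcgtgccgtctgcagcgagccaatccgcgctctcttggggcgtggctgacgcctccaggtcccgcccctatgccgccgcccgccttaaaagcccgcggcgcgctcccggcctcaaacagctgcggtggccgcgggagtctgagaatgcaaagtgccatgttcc
Rgs5: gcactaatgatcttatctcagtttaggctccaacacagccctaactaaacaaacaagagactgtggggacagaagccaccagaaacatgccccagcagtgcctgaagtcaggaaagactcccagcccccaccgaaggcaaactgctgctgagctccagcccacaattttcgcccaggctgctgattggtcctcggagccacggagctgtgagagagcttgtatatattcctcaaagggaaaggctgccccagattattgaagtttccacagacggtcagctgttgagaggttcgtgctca
Rgs4: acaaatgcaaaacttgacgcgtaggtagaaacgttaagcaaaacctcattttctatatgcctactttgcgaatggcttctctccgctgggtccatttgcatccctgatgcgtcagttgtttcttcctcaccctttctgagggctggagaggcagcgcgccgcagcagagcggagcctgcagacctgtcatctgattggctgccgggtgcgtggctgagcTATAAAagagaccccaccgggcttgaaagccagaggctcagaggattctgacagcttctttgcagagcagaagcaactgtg

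A window was found for 8 of the 10 genes, 10 windows in all, and none for Rgs1 and Rgs14. The windows of Rgs10 and Rgs2 were rich in CpG dinucleotides, with 34 and 33, and the Rgs10 window was 76.0% G or C. The Rgs5 window held 6 CpG at 52.3% G or C and the Rgs4 window 13 CpG at 53.0%, against a median of 7 CpG and 52.7% over all 32851 windows. The letters of 6 motifs were searched on both strands. The TATAAA match of Rgs4 lay 31 bases before the start, and a match was also found in both Rgs3 windows, 100 and 177 bases before their starts; 13.62% of all windows hold these letters. The AP-1 letters TGANTCA, held by 7.81% of all windows, were found in 1 of the 2 Rgs12 windows. The cyclic AMP response element (TGACGTCA, 1.79% of windows), the E-box bound by clock proteins (CACGTG, 7.15%), the D-box (TTANGTAA, 2.32%) and the CArG box (1.63%) were found in none of the 10 windows. A match is a description of letters and not a bound site.

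Values are FPKM, the fragments of a gene scaled to the length of its transcripts and to the mapped fragments of the library, as deposited. The libraries held 14455654 to 16564828 fragments. The markers of cardiomyocytes were abundant in every library, with a summed level of 5 genes of 20512 to 21555 FPKM in the controls and 15690 to 17212 FPKM in the ANG II libraries, and 1 of the 5, Myh6, was called lower (2 after median-of-ratios scaling, 0 after quantile normalization). All 8 macrophage markers were called higher, with summed levels of 292 to 369 FPKM in the controls and 658 to 923 FPKM in the ANG II libraries, and so were all 5 fibroblast markers (324 to 454 against 1174 to 1319 FPKM; 4 and 3 were called under these 2 scalings). Of 4 neutrophil markers, 3 were called higher on all 3 scales, with sums of 2.47 to 5.74 FPKM in the controls and 7.83 to 20.5 FPKM in the ANG II libraries. As deposited, 1 of 4 endothelial markers (0 under both other scalings), 1 of 4 smooth muscle markers and 0 of 3 nerve markers were called. The summed level of 3 atrial markers was 1.15 to 48.8 FPKM in the controls and 52.5 to 230 FPKM in the ANG II libraries. As deposited, 1 of the 3, Sln, was called higher, and 0 under both other scalings. The lowest sum was in control 3 and the highest in ANG II 3, so these 2 libraries were also left out together as a check. Without them, the atrial sums of the ANG II libraries still lay above those of the controls. In tissue RNA, a change in the number of cells of a type and a change in RNA per cell cannot be told apart.

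As deposited, 4 of the 10 genes, Rgs10, Rgs3, Rgs14 and Rgs16, were called higher in the ANG II libraries and 0 were called lower. Called means an adjusted p under 0.05 by limma with Benjamini-Hochberg adjustment over all genes and an absolute log2 fold change above 0.5 on the log2(FPKM + 1) scale, a rule that called 14.0% of the 19364 genes tested higher and 1.41% lower. The median log2 fold change was 0.43 over the 10 genes and 0.15 over all genes tested. For this upward median, a broad rise of many genes and an effect of the FPKM scale cannot be told apart here. Under scaling by the median of ratios (median of all genes 0.00) or quantile normalization (median −0.04), the calls among the 10 genes became 1 higher, Rgs10, and 2 lower, Rgs2 and Rgs6. On those scales 8.65% and 7.30% of all genes were called higher and 4.16% and 5.09% lower. Over all genes, the share of calls that were higher went from 90.8% as deposited to 67.5% and 58.9% under those scalings. The rise of Rgs10 was thus the one call held under every scaling, and the direction of Rgs2 and Rgs6 was the same under all of them.

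**Figure D1:**
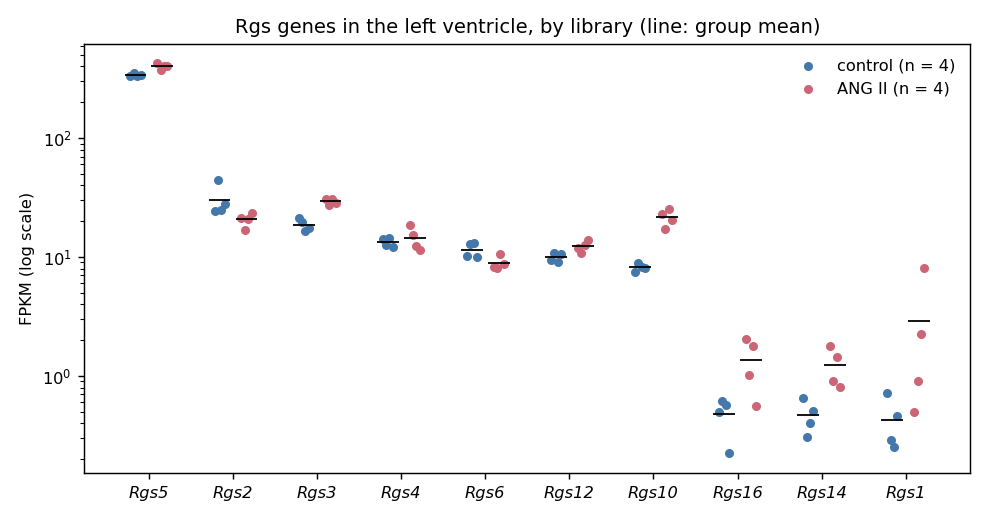
Level of each of the 10 Rgs genes in each library (points, FPKM on a log axis), with the group mean as a line, for 4 control and 4 ANG II libraries. Rgs5 lies far above the others, at 333 to 424 FPKM, the ANG II points of Rgs10, Rgs3, Rgs5 and Rgs14 lie above all control points, and those of Rgs2 lie below all control points.

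Among the R4 genes, Rgs5 had the highest level by far. Rgs5, a regulator of Gq and Gi signals used as a marker of pericytes and arterial smooth muscle, measured 335, 352, 333 and 341 FPKM in control libraries 1 to 4 and 424, 377, 404 and 403 FPKM in ANG II libraries 1 to 4. The groups did not overlap, and the mean went from 340 ± 8.82 to 402 ± 19.2 FPKM (SD, n = 4 each). The log2 fold change was 0.24 (SE 0.0493, limma adjusted p = 0.00451), under the fold change needed for a call, and it was 0.01 (adjusted p = 0.905) under median-of-ratios scaling and 0.13 (adjusted p = 0.0849) under quantile normalization. The Rgs5 gene (ENSMUSG00000026678) lies on chromosome 1 at 169655501 to 169695813. Of 7 other pericyte markers, 3 were called higher (Cspg4, Notch3 and Pdgfrb) and 1 lower (Abcc9), against 1 higher and 1 lower under median-of-ratios scaling and 0 higher and 1 lower under quantile normalization. Their summed level was 175 to 182 FPKM in the controls and 165 to 186 FPKM in the ANG II libraries. Their part in the level of Rgs5 was not tested.

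Rgs4, a regulator of Gq and Gi signals in heart and brain, lies 45663 bases from Rgs5 on the opposite strand (ENSMUSG00000038530, chromosome 1, 169741477 to 169747642). It measured 14.2, 12.5, 14.4 and 12.2 FPKM in control libraries 1 to 4 and 18.4, 15.2, 12.5 and 11.4 FPKM in ANG II libraries 1 to 4. The ANG II libraries lay on both sides of the controls, with 2 above all of them and 1 below all of them. At 0.08 (SE 0.133, limma adjusted p = 0.677), its log2 fold change was near 0, and the sign turned under both other scalings (−0.13 and −0.16) and without ANG II 1 (−0.039). The log2 ratio of Rgs4 to Rgs5 within a library, which a single scaling factor for each library cannot change, was −4.68 ± 0.153 in the controls and −4.83 ± 0.300 in the ANG II libraries (n = 4 each, exact two-sided permutation p = 0.4). A change of these neighbours relative to each other was not detected with 4 libraries in each group.

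Rgs2, an early-response gene whose protein acts chiefly on Gq, had the second highest control level of the 10. It measured 24.5, 44.0, 25.1 and 28.0 FPKM in control libraries 1 to 4 and 21.4, 16.9, 21.01 and 23.5 FPKM in ANG II libraries 1 to 4. Every ANG II library lay below every control, which held for 5.06% of all genes tested, and control 2 stood far above the other controls. The ratio of the means was 0.681, and the log2 fold change was −0.50 (SE 0.174, limma adjusted p = 0.0502), so Rgs2 missed the call by the adjusted p. It was called lower in 7 of 17 alternatives, among them median-of-ratios scaling (−0.72, adjusted p = 0.0103), quantile normalization (−0.72, adjusted p = 0.0113) and a count model on the fragments read back from the FPKM steps (voom, −0.52, adjusted p = 0.0289). Without control 2 the log2 fold change was −0.31 (adjusted p = 0.0512), so its size leaned on that library. The gene (ENSMUSG00000026360, chromosome 1, 143999338 to 144004161) shares no 50-base word of its transcripts with another gene.

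**Figure D2:**
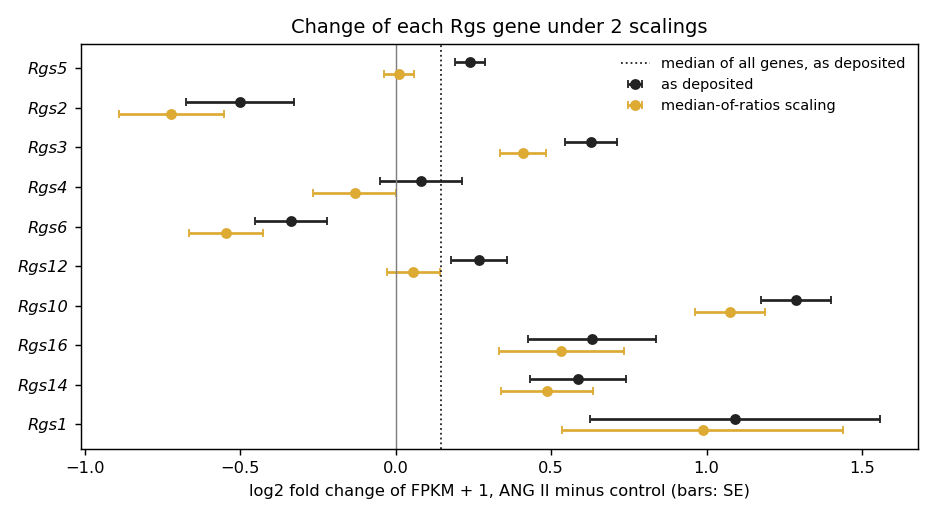
Log2 fold change of FPKM + 1 for each Rgs gene, ANG II minus control, as deposited (black) and after median-of-ratios scaling (gold), with bars of 1 SE; the dotted line is the median of all genes as deposited, 0.15. Rescaling moves every gene to the left, so that Rgs5 and Rgs12 come to lie near 0 and Rgs4 below it, while Rgs10 stays above 1.

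Rgs3, a regulator of Gq and Gi signals with several isoforms, rose. It measured 21.2, 19.7, 16.5 and 17.4 FPKM in control libraries 1 to 4 and 30.7, 27.2, 31.0 and 28.6 FPKM in ANG II libraries 1 to 4. The groups were far apart relative to their spread, with a mean of 18.7 ± 2.15 FPKM in the controls and 29.4 ± 1.79 FPKM in the ANG II libraries (SD, n = 4 each). Its log2 fold change came to 0.63 (SE 0.0835, limma adjusted p = 3.95e-04). Under both other scalings it was 0.41 (adjusted p = 0.00267 and 0.00299), past the adjusted p and below the fold change needed for a call. The gene (ENSMUSG00000059810, chromosome 4, 62559847 to 62704001) has 17 annotated transcripts, and other genes, chiefly Gm5763, share 11.4% of its 50-base words, so a part of its fragments could be assigned either way.

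Rgs16, an inducible regulator of Gi and Gq signals, was low in all libraries. It measured 0.503, 0.615, 0.568 and 0.224 FPKM in control libraries 1 to 4 and 2.06, 1.02, 1.78 and 0.562 FPKM in ANG II libraries 1 to 4, which stand for 8 to 22 fragments in the controls and 21 to 73 in the ANG II libraries. ANG II 4 lay within the control range and the other 3 ANG II libraries above it. Its log2 fold change stood at 0.63 (SE 0.206, limma adjusted p = 0.0399), a call that was lost in 11 of 16 alternatives, including both other scalings (adjusted p = 0.0772 and 0.121) and 7 of the 8 fits with 1 library left out. Without ANG II 4 it was 0.81 (adjusted p = 0.00753), while without control 4 it was 0.54 (adjusted p = 0.104). Of its exon bases on chromosome 1 (ENSMUSG00000026475, 153740349 to 153745468), 10.1% lie under Gm28513, which is read from the opposite strand, and whether the counting used strand is not given in the sources used here. The genes closest to Rgs16 over the 8 libraries, by the root mean square difference of control-centred log2(FPKM + 1), were Fignl1 (0.113), Rrm1 (0.121) and Rad51ap1 (0.130). Their log2 fold changes were 0.56, 0.64 and 0.67, and a group difference of like size weighs heavily in this distance.

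Rgs16 was also read beside Dbp, an output gene of the circadian clock, chosen after its values were seen. Dbp measured 2.29 to 3.23 FPKM in the controls and 15.2, 22.8, 19.7 and 6.36 FPKM in ANG II libraries 1 to 4. Of 10 clock genes, a list also chosen after values were seen, 6 were called higher and 2 lower, against 14.0% and 1.41% of all genes. Under median-of-ratios scaling 4 were called higher and 2 lower, and under quantile normalization 6 and 2. ANG II 4 lay nearest to the controls in Dbp as it did in Rgs16. The time of day at sampling is not given in the sources used here, and the part of the clock in Rgs16 was not tested.

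Rgs1, which limits chemokine receptor signals in B and T lymphocytes, varied most. It measured 0.715, 0.290, 0.255 and 0.461 FPKM in control libraries 1 to 4 and 0.496, 0.913, 2.24 and 8.03 FPKM in ANG II libraries 1 to 4. The ANG II range spanned 16 to 273 fragments against 9 to 22 in the controls, and ANG II 1 lay within the control range. The log2 fold change was 1.09 (SE 0.467, limma adjusted p = 0.102) and was not called. It was 1.43 (adjusted p = 0.0405) without ANG II 1 and 0.57 (adjusted p = 0.121) without ANG II 4, so a single library moved both its size and its call. The gene (ENSMUSG00000026358, chromosome 1, 144242296 to 144249242) lies 238134 bases from Rgs2. The log2 ratio of Rgs1 to Rgs2 went from −6.22 ± 0.925 in the controls to −3.61 ± 1.64 in the ANG II libraries (n = 4 each, exact two-sided permutation p = 0.0571, 0.0857 after Benjamini-Hochberg adjustment over 3 ratios).

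ANG II 4, the library with the most Rgs1, was also the highest of the 8 for the T cell, immediate early and pericyte lists (pericyte 186 FPKM, against at most 182 FPKM in the others). The summed level of 5 T cell markers was 1.73 to 6.14 FPKM in the controls and 5.77, 4.57, 7.73 and 9.09 FPKM in ANG II libraries 1 to 4, and 1 of the 5, Cd4, was called higher, a call lost under quantile normalization. The summed level of 11 immediate early genes, a list chosen after values were seen, was 178 to 193 FPKM in the controls and 181, 177, 222 and 327 FPKM in ANG II libraries 1 to 4, with Fos and Junb called higher (under quantile normalization, 1 of the 11 genes was called). Of the B cell markers, 0 of 4 were called, at 0.618 to 2.13 FPKM in the controls and 1.37 to 2.32 FPKM in the ANG II libraries. The part of these cells and genes in Rgs1 was not tested.

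**Figure D3:**
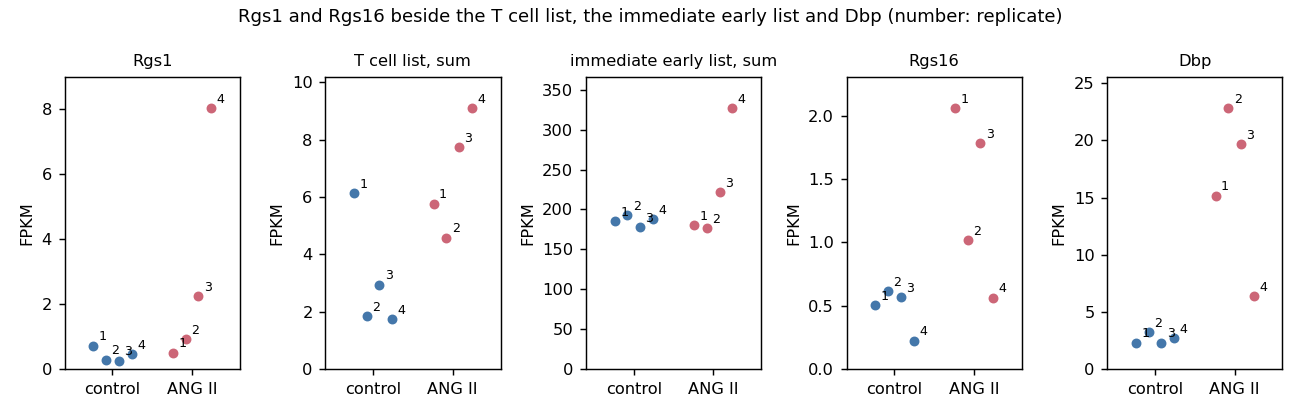
FPKM of Rgs1, of the summed T cell and immediate early lists, of Rgs16 and of Dbp in each library, with the replicate number beside each point (control in blue, ANG II in red). ANG II 4 is highest in the first 3 panels, at 8.03, 9.09 and 327 FPKM, and is the lowest ANG II library in the last 2, at 0.562 and 6.36 FPKM.

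In the R7 subfamily, Rgs6 is known to restrain the Gi signal of the muscarinic receptor that slows the heart. It measured 10.2, 12.8, 13.2 and 9.91 FPKM in control libraries 1 to 4 and 8.22, 8.09, 10.7 and 8.71 FPKM in ANG II libraries 1 to 4. Of the ANG II libraries, 3 lay below all controls and ANG II 3 within their range. The log2 fold change was −0.34 (SE 0.116, limma adjusted p = 0.05003, just above the threshold), and it was called lower under median-of-ratios scaling (−0.54, adjusted p = 0.00731) and quantile normalization (−0.60, adjusted p = 0.00535). Its relative Rgs7 and the channel subunit Kcnj3, on which the muscarinic Gi signal acts, were likewise highest among ANG II libraries in ANG II 3. Rgs7 measured 1.20 to 1.40 FPKM in the controls and 0.475, 0.489, 1.31 and 0.638 FPKM in ANG II libraries 1 to 4. Kcnj3 measured 16.1 to 20.8 FPKM in the controls and 11.4, 10.7, 18.0 and 11.6 FPKM in ANG II libraries 1 to 4, with a log2 fold change of −0.57 (limma adjusted p = 0.0162). ANG II 3 had the highest summed level of atrial markers (230 FPKM). Control 3 had the lowest (1.15 FPKM) and was the highest library for Rgs6. Without both of these libraries, Rgs6 stood at −0.35 (adjusted p = 0.0512), and the part of atrial tissue in these genes was not tested. Gnb5, the beta subunit that R7 proteins need, had a log2 fold change of −0.07 (adjusted p = 0.660), and of −0.29 (adjusted p = 0.0935) and −0.31 (adjusted p = 0.0782) under median-of-ratios scaling and quantile normalization.

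In the R12 subfamily, Rgs10, a small regulator of Gi signals best known from microglia, macrophages and platelets, rose. It measured 7.43, 8.91, 8.23 and 8.10 FPKM in control libraries 1 to 4 and 23.0, 17.1, 25.6 and 20.6 FPKM in ANG II libraries 1 to 4, or 52 to 66 fragments against 132 to 187. The groups were far apart, with the lowest ANG II library well above the highest control. The means were 8.17 ± 0.607 and 21.6 ± 3.61 FPKM (SD, n = 4 each), a ratio of 2.64, and the log2 fold change was 1.29 (SE 0.113, limma adjusted p = 4.35e-05). It was called in all 17 alternatives, at log2 fold changes of 1.03 to 1.39. The ratio of means was larger in Rgs1 (6.79) and Rgs16 (2.84), both much lower genes whose groups overlapped. The gene (ENSMUSG00000030844, chromosome 7, 128373621 to 128418758) shares no 50-base word with another gene and lies under no other gene.

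The genes closest to Rgs10 over the 8 libraries were Il4ra (root mean square difference 0.117), Csf1r (0.123) and Sdc1 (0.127). Their log2 fold changes were 1.30, 1.18 and 1.35, and a group difference of like size weighs heavily in this distance. Csf1r, the receptor for the growth factor of macrophages, is on the macrophage marker list, and it went from 25.98 to 60.5 FPKM in the mean. The summed level of the 8 macrophage markers was highest in ANG II 3 (923 FPKM), then ANG II 1 (813 FPKM), ANG II 4 (677 FPKM) and ANG II 2 (658 FPKM), which is also the order of Rgs10 in these libraries. The controls did not follow the same order, with the most macrophage markers and the least Rgs10 in control 1 (369 and 7.43 FPKM) and the least markers and the most Rgs10 in control 2 (292 and 8.91 FPKM). The summed level of 4 platelet markers was 20.4 to 28.6 FPKM in the controls and 34.1 to 85.4 FPKM in the ANG II libraries, with the highest value in ANG II 2, the ANG II library with the least Rgs10, and 1 of the 4, Pf4, was called higher. The part of these cells in Rgs10 was not tested.

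Rgs14, which binds Gi alpha subunits and Rap proteins, rose from a low level. It measured 0.658, 0.306, 0.405 and 0.512 FPKM in control libraries 1 to 4 and 1.77, 0.912, 1.44 and 0.805 FPKM in ANG II libraries 1 to 4, or 8 to 17 fragments against 23 to 48. The groups did not overlap, and the ANG II libraries spread more widely than the controls. The log2 fold change was 0.59 (SE 0.154, limma adjusted p = 0.0153), and the pseudocount holds it down: it was 1.20 with a pseudocount of 0.1. The call was lost under median-of-ratios scaling (0.49, adjusted p = 0.0358), under quantile normalization (0.40, adjusted p = 0.0650), without ANG II 1 (0.47, adjusted p = 0.0388) and, on the adjusted p, without control 3 and ANG II 3 (0.52, adjusted p = 0.0892). The gene (ENSMUSG00000052087) lies on chromosome 13 at 55369732 to 55384687.

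Rgs12, a large scaffold that binds Gi alpha subunits and Ras proteins, differed little. It measured 9.51, 10.9, 9.10 and 10.5 FPKM in control libraries 1 to 4 and 11.96, 10.7, 12.6 and 13.8 FPKM in ANG II libraries 1 to 4. ANG II 2 lay within the control range and the other 3 ANG II libraries above it. Its log2 fold change, 0.27 (SE 0.0893, limma adjusted p = 0.0432), was past the adjusted p and under the fold change needed for a call. It was 0.06 (adjusted p = 0.675) and 0.02 (adjusted p = 0.910) under the other 2 scalings. The gene (ENSMUSG00000029101, chromosome 5, 34949445 to 35039644) has 5.50% of its exon bases under Gm43791 on the opposite strand.

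Over the 10 genes, 6 had an adjusted p under 0.05 and were higher, against 28.4% of all genes tested, and 0 were lower, against 4.91%. Under median-of-ratios scaling 3 were higher (Rgs3, Rgs10 and Rgs14, against 14.6% of all genes) and 2 lower (Rgs2 and Rgs6, against 13.1%). Under quantile normalization 2 were higher (Rgs3 and Rgs10, against 12.5%) and 2 lower (Rgs2 and Rgs6, against 15.3%). The groups did not overlap for 4 genes that were higher, Rgs3, Rgs5, Rgs10 and Rgs14, against 28.7% of all genes tested. They also did not overlap for 1 gene that was lower, Rgs2, against 5.06%.

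Shares of the summed FPKM of the 10 genes were compared within each library, since a single scaling factor for each library leaves them as they are (quantile normalization does not). Rgs5 made up 78.5 ± 1.55% of the sum in the controls and 78.1 ± 0.892% in the ANG II libraries (SD, n = 4 each, exact two-sided permutation p = 0.743). The difference of −0.354 percentage points became −1.12 without control 2, the control with the lowest share, and 0.021 without control 4. The share of Rgs10 went from 1.88 ± 0.0894% to 4.17 ± 0.544%, and that of Rgs3 from 4.31 ± 0.484% to 5.71 ± 0.170%. The share of Rgs2 went from 6.95 ± 1.74% to 4.01 ± 0.393%, and that of Rgs6 from 2.66 ± 0.373% to 1.73 ± 0.218%. In each of these 4 genes the groups did not overlap, at an exact two-sided permutation p of 0.0286, the smallest that 4 against 4 libraries allow, and at 0.0714 after Benjamini-Hochberg adjustment over the 10 genes. The log2 ratio of Rgs16 to Rgs4 went from −4.90 ± 0.611 to −3.55 ± 0.695, also without overlap (n = 4 each, exact permutation p = 0.0286, adjusted 0.0857 over 3 ratios). Within a library, the Rgs genes beside Rgs5 thus held less Rgs2 and Rgs6 and more Rgs10 and Rgs3 in every ANG II mouse than in any control, though no share passed the adjustment.

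**Figure D4:**
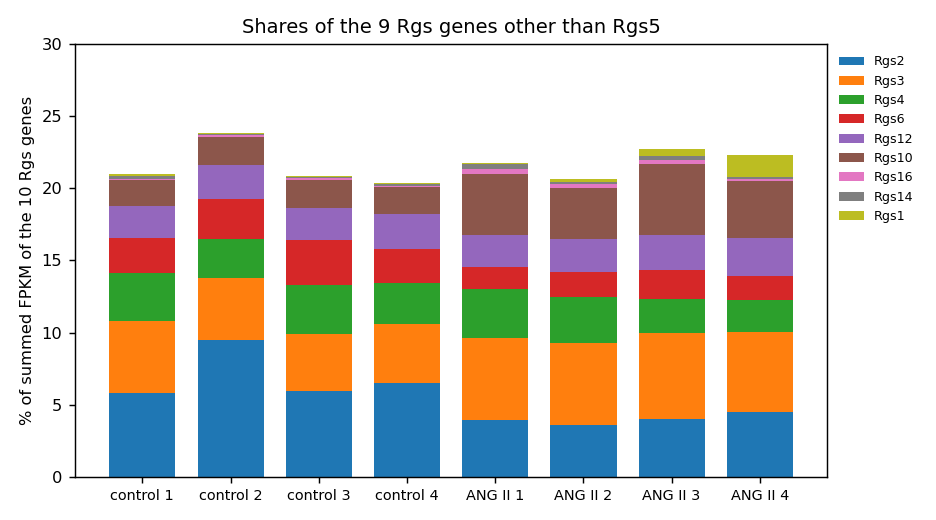
Share of the summed FPKM of the 10 Rgs genes held by each of the 9 genes other than Rgs5, for each library, stacked from 0. The Rgs2 layer falls from between 5.77% and 9.52% in the controls to between 3.56% and 4.52% in the ANG II libraries, while the Rgs10 layer widens from at most 1.96% in the controls to as much as 4.89% in ANG II 3.

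The order of the levels, which FPKM puts on a scale per transcript length, differed between the groups below Rgs5. In the controls it ran Rgs5, Rgs2, Rgs3, Rgs4, Rgs6, Rgs12, Rgs10, Rgs16, Rgs14 and Rgs1 from highest to lowest mean. The ranges of Rgs4 and Rgs6, Rgs6 and Rgs12, Rgs16 and Rgs14, and Rgs14 and Rgs1 overlapped, so those neighbours did not differ beyond their spread. In the ANG II libraries it ran Rgs5, Rgs3, Rgs10, Rgs2, Rgs4, Rgs12, Rgs6, Rgs1, Rgs16 and Rgs14, where the ranges of Rgs10 and Rgs2, Rgs2 and Rgs4, Rgs4 and Rgs12, Rgs1 and Rgs16, and Rgs16 and Rgs14 overlapped. Rgs10 thus moved from rank 7 to rank 3 and Rgs2 from rank 2 to rank 4. FPKM rests on a mean transcript length of 484 bases for Rgs10 and 1255.5 bases for Rgs2. With the longest annotated transcript in its place, chosen after the data were seen, Rgs10 moved from rank 5 to rank 3 and Rgs2 from rank 2 to rank 5.

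Among the 11 other Rgs genes, 7 passed the filter of a mean of 0.1 FPKM and 2 were called higher. Rgs19, a regulator of Gi signals, measured 5.88, 4.31, 5.32 and 5.35 FPKM in control libraries 1 to 4 and 11.2, 9.61, 10.5 and 9.13 FPKM in ANG II libraries 1 to 4, without overlap (log2 fold change 0.84, limma adjusted p = 2.30e-04). Rgs11, an R7 gene, rested on 1 to 8 fragments in the controls and 10 to 27 in the ANG II libraries (log2 fold change 0.64, limma adjusted p = 0.00625). Rgs7 had a log2 fold change of −0.44 (limma adjusted p = 0.0459) and was called lower under median-of-ratios scaling (−0.55), under quantile normalization (−0.65) and without control 3 and ANG II 3 (−0.61). The 4 genes that did not pass the filter were Rgs8, Rgs13, Rgs20 and Rgs21, with 0 to 3 fragments in each library.

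The proteins with which the RGS genes work were taken as 6 further lists. Over all 7 lists, the other Rgs genes included, 22 of 86 genes tested were called (25.6%, against 15.4% of all genes tested), 21 higher and 1 lower. Under median-of-ratios scaling the split was 17 higher and 5 lower, and under quantile normalization 15 higher and 6 lower, so the lean toward higher calls was smaller on those scales. As deposited, the share called was 28.6% of other Rgs genes, 30.8% of alpha subunits, 31.2% of receptors and 42.9% of kinases and arrestins. It was 21.1% of effectors and 16.7% each of beta and gamma subunits and of partners, against 15.4% of all genes. Of each list, up to 3 called members with the largest change are named below, beside further genes chosen after values were seen.

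Among 13 alpha subunits, the switches that RGS proteins turn off, 4 were called higher and 0 lower. Gnao1, a Gi relative, measured 11.7 to 15.6 FPKM in the controls and 21.1 to 29.3 FPKM in the ANG II libraries (log2 fold change 0.91, limma adjusted p = 2.44e-04). Gna15, a Gq relative of blood cells, had a log2 fold change of 0.75 (adjusted p = 0.0116), and Gnai2, the main Gi subunit of this table at 198 to 232 FPKM in the controls and 323 to 346 FPKM in the ANG II libraries, one of 0.62 (adjusted p = 4.92e-05). The calls of Gnai2 (0.40 and 0.48) and of Gnai3 (0.41 and 0.38) were lost under both other scalings and that of Gna15 under quantile normalization (0.54, adjusted p = 0.0560), which left 2 and 1 alpha subunits called. Gnaq, which carries the angiotensin signal, had a log2 fold change of 0.39 (adjusted p = 7.78e-04), under the fold change needed for a call, and of 0.17 (adjusted p = 0.0469) and 0.15 (adjusted p = 0.0612) under the other scalings.

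Of 14 beta and gamma subunits, 12 were tested and 2 were called higher (16.7%, near the 15.4% of all genes called). The count called higher was also 2 under both other scalings, where Gnb3 was called lower as well. Gng8 measured 0.437 to 0.925 FPKM in the controls and 2.65 to 5.87 FPKM in the ANG II libraries (log2 fold change 1.62, limma adjusted p = 1.75e-04). Gng2 went from 4.62 to 11.4 FPKM in the mean (log2 fold change 1.14, adjusted p = 6.31e-05). Of 13 partners and related proteins, 12 were tested and 2 were called higher (also 16.7%), both of them modulators that hold Gi alpha subunits. Gpsm3 had a log2 fold change of 1.11 (limma adjusted p = 3.95e-04) and Gpsm2 of 1.10 (adjusted p = 2.89e-04), and both were also called under the other scalings.

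Of 17 receptors coupled to Gq or Gi, 16 were tested, 5 were called higher and 0 lower. The largest changes were those of S1pr2, a receptor for sphingosine 1-phosphate (log2 fold change 1.40, limma adjusted p = 4.19e-05), P2ry6, a receptor for UDP (1.19, adjusted p = 1.61e-04), and Cxcr4, a chemokine receptor (1.16, adjusted p = 0.00411). The receptor for angiotensin II itself, Agtr1a, measured 28.8 to 44.5 FPKM in the controls and 27.5 to 32.7 FPKM in the ANG II libraries (log2 fold change −0.20, adjusted p = 0.227). Under median-of-ratios scaling it was −0.43 (limma adjusted p = 0.0185) and under quantile normalization −0.40 (adjusted p = 0.0276), lower on the adjusted p and under the fold change needed for a call. The adrenergic receptor Adra1b and the muscarinic receptor Chrm2 were called lower under median-of-ratios scaling (−0.68 and −0.51), where Adra1b was among 3 adrenergic receptors called lower under quantile normalization.

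Among 19 effectors, 3 were called higher and 1, Kcnj3, lower. Adcy7, an adenylyl cyclase, had a log2 fold change of 1.37 (limma adjusted p = 1.41e-05), Plcb1, the phospholipase that Gq activates, of 0.73 (adjusted p = 0.0102), and Prkg1, the kinase that phosphorylates Rgs2 in smooth muscle, of 0.57 (adjusted p = 0.00198). The call of Prkg1 was lost under both other scalings (0.36 and 0.31) and that of Plcb1 under quantile normalization (0.41). Among 7 receptor kinases and arrestins, which uncouple receptors, 3 were called higher: Arrb2 (log2 fold change 1.21, limma adjusted p = 3.34e-04), Grk5 (0.79, adjusted p = 4.35e-05) and Arrb1 (0.67, adjusted p = 0.00109, called on the deposited scale and not under the others).

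**Figure D5:**
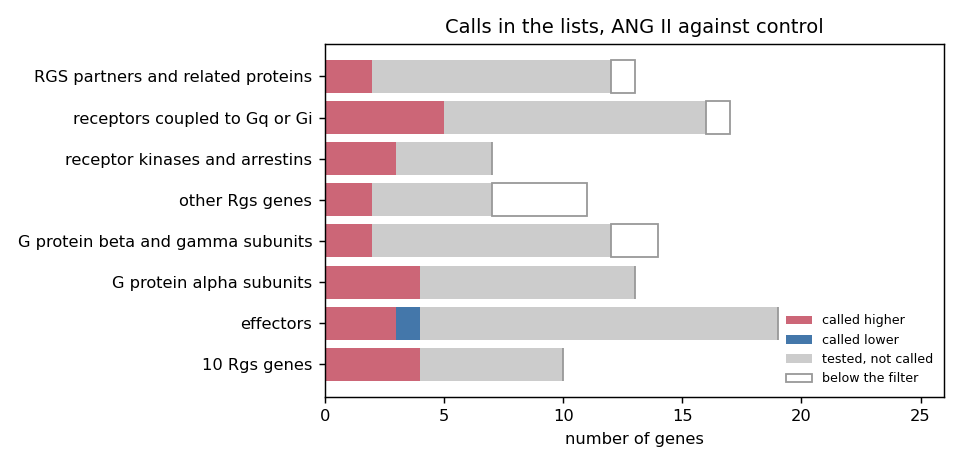
Number of genes called higher (red), called lower (blue), tested and not called (grey) and below the filter (white) in the 10 Rgs genes and 7 lists of related genes, ANG II against control, as deposited. Kcnj3, an effector, is the single gene called lower, and 4 of the 10 Rgs genes and 5 of 16 tested receptors are called higher.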

How the data were processed

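Messenger RNA of left ventricle was enriched on oligo(dT) beads and sequenced as paired ends, with 4 control and 4 ANG II libraries grouped by their labels. The authors deposited 1 table of FPKM values with 1 column per library, not pooled. The submitters' processing notes name HISAT, Bowtie2 and RSEM without role or version, and the genome build, the annotation and the use of strand are not given in the sources used here. The labels do not say more of the mice than group and number, so p-values measure the spread between these libraries. The 10 genes and all gene lists were chosen with earlier results of these data known. The immediate early and clock lists, Dbp, Gnaq, Gnai3, Gnb3, Gnb5, Kcnj3, Rgs7, Rgs9, Rgs18, Agtr1a, Adra1a, Adra1b and Chrm2 were chosen after values were seen; the other genes named are the 10 genes, up to 3 called genes of each pathway list, markers, and the 3 genes most like each of the 2 called genes with the largest change.

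Values were taken as log2(FPKM + 1), and the 19364 genes whose mean reached 0.1 FPKM were fitted in R 4.3.3 by limma 3.58.1 with trended variance and no covariate. The two-sided p-values of all these genes were adjusted together after Benjamini and Hochberg. The study names limma and the thresholds used (adjusted p under 0.05, absolute log fold change above 0.5), whereas the base of the logarithm, the pseudocount and the filter were choices made here. Because 1 FPKM is added to every value, the fold changes of low genes come out too small. Fragments were read back from the FPKM steps with the mean transcript length of each gene in GENCODE M21 (GRCm38), which holds 55141 of the gene IDs. Of values under 60 fragments, 99.4% (1 exon) and 98.1% (several exons) were whole within 0.1. Ratios and shares within a library were compared by exact permutation over the 70 allocations of 8 libraries. Other steps ran in Python 3.11.15 with pandas 2.3.3, scipy 1.17.1 and matplotlib 3.10.9, and the fits were tested on simulated data. The alternatives were a pseudocount of 0.1, no filter, a mean of at least 1 FPKM, median-of-ratios scaling, quantile normalization, no variance trend, a replicate block, voom on the recovered fragments, other fold change thresholds, each library left out in turn, and, added after the data were seen, control 3 and ANG II 3 left out together.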

Additional observations from a re-analysis of the deposited data

Results flagged for a closer look

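In 152 groups of 4 libraries formed by the 10 Rgs genes, other named genes, the summed marker lists and the ratios and shares, Dixon's ratio of the gap to the range was compared with its 95% critical value, which chance alone passes in about 1 of 20 groups. The 10 Rgs genes gave no such value, and 7 genes of the related lists gave 1 each. Gng2 measured 5.196 FPKM in control 1, where the other controls lay between 4.371 and 4.496 FPKM. Adcy7 measured 15.82 FPKM in ANG II 3, where the other ANG II libraries lay between 18.39 and 18.91 FPKM. S1pr2 measured 8.715 FPKM in ANG II 1, where the other ANG II libraries lay between 7.158 and 7.256 FPKM. In these 3 genes the ANG II libraries lay above all controls. Kcnj3 measured 18.01 FPKM in ANG II 3, where the other ANG II libraries lay between 10.69 and 11.63 FPKM, and Gnb5 measured 13.4 FPKM in ANG II 4, where they lay between 17.3 and 18.05 FPKM. Control 2 stood apart in 2 receptors, Adra1b at 16.72 FPKM (other controls 8.718 to 9.572 FPKM) and Chrm2 at 48.97 FPKM (34.75 to 36.6 FPKM).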

How the results depend on the processing

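Of the 4 Rgs genes called, 3 lost their call under both other scalings. Rgs10 was called in all 17 alternatives, while Rgs4 turned to −0.13 under median-of-ratios scaling, −0.16 under quantile normalization and ranged from −0.039 to 0.18 with each library left out in turn, turning sign without ANG II 1. The other 8 genes kept their sign in every alternative that could be fitted. The count of Rgs genes called, 4 in the comparison above, was 2 without control 3 and ANG II 3 and 1 with an absolute log2 fold change over 1, and 3 to 4 with each library left out in turn. The genes behind this count changed. Without control 1, Rgs2 was called lower and Rgs16 lost its call. Without ANG II 1, Rgs1 was called higher and Rgs14 lost its call. Over all genes, 6447 passed without a fold change threshold and 795 with one over 1, against 2981, and of the related genes 49 and 11, against 22. With each library left out in turn, these counts were 2763 to 3109 and 22 to 25. A minimum mean of 1 FPKM removed Rgs14 and Rgs16, so neither has a value there. Ratios and shares within a library kept their direction under all leave-one-out settings, except the differences in the shares of Rgs5 (−1.12 to 0.021 percentage points) and Rgs12 (−0.0146 to 0.135).

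Whether the replicate numbers pair the libraries is not given in the labels. The deviations of same-numbered libraries from their group means had correlations of −0.0163, 0.0620, −0.0320 and −0.00929. Those of differently numbered libraries ran from −0.0881 to 0.0944. With 4 libraries in each group, whose deviations sum to 0, these values cannot settle whether the numbers stand for pairs. With the replicate number as a block, 4 Rgs genes and 2968 genes in all were called, Rgs12 had an adjusted p of 0.0757 and Rgs6 of 0.0358, and 4 pairs cannot give an exact p under 0.125. Rgs1, Rgs14 and Rgs16 rest on fewer than 25 fragments in each control library, where a difference of a few fragments moves the value. With 3 libraries against 4, the exact p cannot go below 0.0571.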

Other observations

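Control 2, the library with the most Rgs2 (44.0 FPKM), was also the highest control for 8 of the 16 tested receptors that signal through Gq or Gi, against 5 in control 1, 0 in control 3 and 3 in control 4. The 4 given here were picked after their values were seen. Adra1b measured 16.7 FPKM there and 8.72 to 9.57 FPKM in the other controls, and Chrm2 measured 49.0 FPKM there and 34.8 to 36.6 FPKM in the other controls. Agtr1a measured 44.5 FPKM there against 28.8 to 36.9 FPKM, and Adra1a 8.23 FPKM against 5.81 to 7.26 FPKM. The part of this library's other differences in Rgs2 was not tested.

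Rgs9, an R7 gene best known from the retina and the striatum, measured 0.0325 to 0.0858 FPKM in the controls and 0.208 to 0.469 FPKM in the ANG II libraries, without overlap, which stand for 1 to 3 fragments against 7 to 15. Its log2 fold change was 0.29 (limma adjusted p = 0.0338) and 1.32 (adjusted p = 0.0210) with a pseudocount of 0.1, where it was called higher. Rgs18, an R4 gene of platelets and their precursors, measured 0.357 to 0.579 FPKM in the controls and 0.974, 1.45, 0.814 and 0.616 FPKM in ANG II libraries 1 to 4, without overlap (log2 fold change 0.36, limma adjusted p = 0.0681). It was highest in ANG II 2, the library with the highest summed level of platelet markers, 85.4 FPKM. The part of platelets in Rgs18 was not tested.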
